A study of Homo sapiens with 18 samples.

Results

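MHC class II molecules are surface proteins that show peptides from engulfed or internal material to CD4+ T cells. The transcripts described here are those of 10 genes, found by matching the Ensembl gene IDs of the deposited table to their symbols. All 10 were found among the 40184 gene IDs in the table. The classical pairs were HLA-DRA with HLA-DRB1, HLA-DPA1 with HLA-DPB1, and HLA-DQA1 with HLA-DQB1. HLA-DMA and HLA-DMB encode the chaperone that exchanges peptides on class II molecules, CD74 encodes the invariant chain that guards the peptide groove during transport, and CIITA encodes the transactivator that switches class II genes on. The genes were chosen by their levels in the DMSO cultures and their changes with RMC-4550 in these same data, so those levels and changes are a description, also where calls of a model fitted over the whole table are counted for them.

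RNA was sequenced from 18 cultures of 3 human acute myeloid leukaemia (AML) cell lines. The genotype is FLT3-ITD, a tandem duplication inside a receptor gene, for Molm-14 and for MV4-11. SKNO-1 has KIT N822K, a point mutation in another receptor gene. Every line was kept for 24 h with the vehicle DMSO or with RMC-4550 at 500 nM, with 3 replicates in each of the 6 groups. RMC-4550 is an allosteric inhibitor of SHP2, the phosphatase that relays signals from receptor kinases to RAS. Both SKNO-1 groups were grown with GM-CSF at 10 ng/mL and the other groups were not, so the line, its mutation and this growth factor cannot be told apart. Each line is a single leukaemia. The p-values measure the spread between replicate cultures, pooled over the 3 lines, and not the spread between leukaemias.

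CIITA does not bind DNA itself. It is recruited to class II promoters by the RFX complex (RFX5, RFXAP and RFXANK), by CREB and by NF-Y (NFYA, NFYB and NFYC), which sit on conserved elements called the X and Y boxes, and its own level is usually limiting for class II expression. Dendritic cells and B cells make CIITA constitutively, and interferon-gamma induces it in many other cells through JAK signalling and IRF1. In AML, class II on the leukaemic cells matters because donor T cells recognise it after a transplant, and its loss has been linked to relapse.

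In short, the 8 HLA-D genes among the 10 summed to 9.09 CPM in Molm-14 with DMSO and 17.9 CPM with RMC-4550, most of it HLA-DMA. The sum was 73.02 and 219 CPM in MV4-11, and 66.4 and 333 CPM in SKNO-1. CIITA ran from 1.33 ± 0.29 CPM (SD, n = 3) in Molm-14 with DMSO to 194 ± 16.9 CPM in SKNO-1 with RMC-4550. CPM are reads scaled to a common library size.

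Libraries held between 17434810 and 19959917 reads. Mitochondrial genes took 5.07% to 7.02% of the reads in 14 libraries and 10.5% to 15.0% in the other 4, which were Molm-14 with RMC-4550 replicate 2, MV4-11 with DMSO replicates 1 and 3, and MV4-11 with RMC-4550 replicate 1. MV4-11 comparisons therefore set groups of mixed composition against each other, and values within each class of library are given below. Of the 9261 genes that reached 10 CPM in the Molm-14 DMSO group, 0 were below 1% of their level there in MV4-11, against 69 in SKNO-1. In the other direction, 9416 genes reached 10 CPM in MV4-11. Of these, 61 were below 1% of their level there in Molm-14 and 29 in SKNO-1. Of the 9244 genes that reached 10 CPM in SKNO-1, 13 were below 1% of their level there in MV4-11 and 123 in Molm-14. Whether all reads of the MV4-11 libraries came from MV4-11 cells was not tested. In bulk RNA, a larger share of class II positive cells and more RNA per cell cannot be told apart. HLA genes differ between people, and reads from alleles unlike the reference may align less often. The part of such losses in differences between lines or between genes was not tested.

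Promoter sequences were searched for letters of the X and Y boxes. RefSeq promoters (GRCh38.p14, 250 bases before to 50 after the start) held entries for 8 of the 10 genes, but none for HLA-DRA or CIITA. The stretches below are printed 5′ to 3′ on the gene's strand because they place the Y box letters ATTGG of 5 class II genes next to the letters CNGATGA where both occur. Both motifs are in capitals, and CNGATGA was picked after these sequences had been seen, so its counts in them support nothing.
HLA-DRB1: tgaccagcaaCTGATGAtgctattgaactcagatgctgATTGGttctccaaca
HLA-DQB1: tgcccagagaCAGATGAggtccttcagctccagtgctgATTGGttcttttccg
HLA-DMA: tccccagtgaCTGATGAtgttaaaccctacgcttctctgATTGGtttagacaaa
HLA-DOB: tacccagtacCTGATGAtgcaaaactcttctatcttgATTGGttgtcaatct
HLA-DPB1: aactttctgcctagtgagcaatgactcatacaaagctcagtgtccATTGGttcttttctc
They lie at chr6:32589880-32589932 (HLA-DRB1), chr6:32666731-32666783 (HLA-DQB1), chr6:32953162-32953215 (HLA-DMA) and chr6:32817086-32817137 (HLA-DOB), all on the minus strand, and at chr6:33075846-33075905 on the plus strand (HLA-DPB1). In the first 4 the ATTGG letters begin 20 to 22 bases after the end of CNGATGA.

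Of the 8 promoters, 3 (HLA-DRB1, HLA-DQB1 and HLA-DMA) held CNGATGA followed by ATTGG after 5 to 30 bases, searched on both strands. Of all 35116 promoters, 78 did, or 0.222%. Taken singly the letters are common, with ATTGG on either strand in 34.6% of all promoters and in 7 of the 8, and CNGATGA in 9.19% and in 6 of the 8. HLA-DPB1 and HLA-DQA1 held ATTGG on the gene's strand without CNGATGA at that spacing, and CD74 and HLA-DMB held ATTGG on the opposite strand only. HLA-DPA1 held ATTGG on neither strand, and CNGATGA only on the opposite strand, in 1 of its 2 entries. A match describes the letters in this window and shows no binding. HLA-DOB, which has both motifs at a like spacing, was read in SKNO-1 at 0.695 CPM with DMSO and 0.555 CPM with RMC-4550, where HLA-DRB1 was at 16.3 and 67.7 CPM.

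CIITA (chr16:10866222-10943021, plus strand, GENCODE 29 on GRCh38) had 1.56, 1.44 and 1.003 CPM in the Molm-14 DMSO libraries and 1.64, 2.18 and 2.04 CPM with RMC-4550. These are 18 to 36 reads per library. In MV4-11 it had 33.3, 35.2 and 22.4 CPM with DMSO and 71.4, 101 and 106 CPM with RMC-4550. The SKNO-1 libraries had 41.01, 42.0 and 36.6 CPM with DMSO and 179, 212 and 190 CPM with RMC-4550. The treated libraries lay above the DMSO libraries in every line, and each Molm-14 library lay far below each library of the other lines. The log2 change was 2.28 in SKNO-1, 1.62 in MV4-11 and 0.55 in Molm-14 (SE 0.20 each, 3 libraries a group). With DMSO, CIITA was 22.7 times as high in MV4-11 as in Molm-14 and 29.9 times as high in SKNO-1. The small Molm-14 change was 0.37 without DMSO replicate 3, 0.47 without RMC-4550 replicate 2 and 0.52 without RMC-4550 replicate 3.

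Exons of CIITA overlap those of DEXI on the opposite strand by 2416 bases, and the counting's strand setting is not given in the sources used here. DEXI had 3.89 CPM with DMSO and 10.4 CPM with RMC-4550 in SKNO-1, and 3.22 and 5.12 CPM in MV4-11. It had 0.998 and 0.564 CPM in Molm-14. These levels follow those of CIITA in MV4-11 and SKNO-1 but are far lower, and reads of DEXI and CIITA from the shared bases cannot be told apart without strand.

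**Figure D1:**
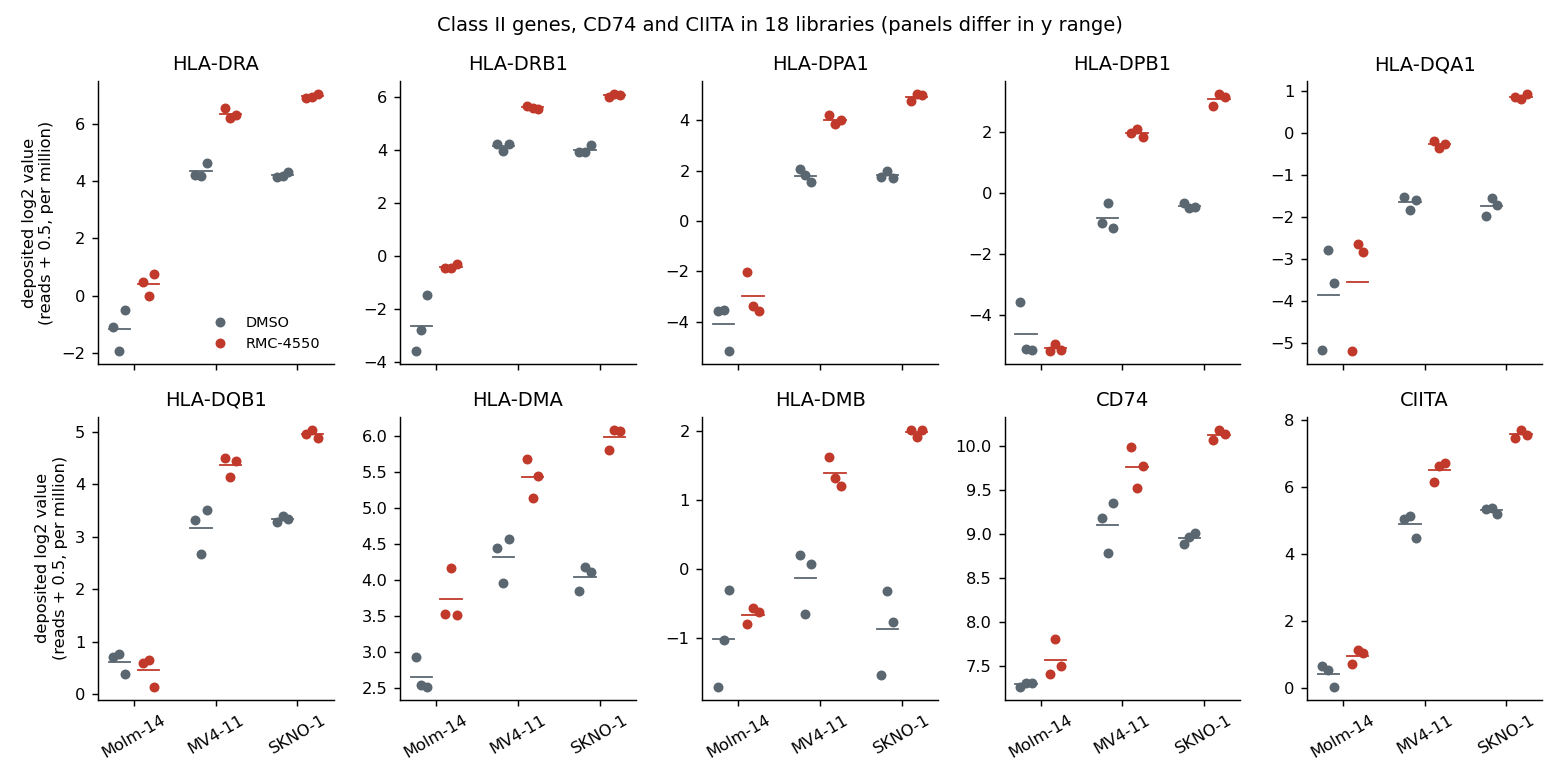
Deposited log2 value of each of the 10 genes (y axis, log2 CPM with 0.5 added to the reads) in each of the 18 libraries, by line (x axis) and treatment (colour), with group means as short lines; y ranges differ between panels. All MV4-11 and SKNO-1 libraries with RMC-4550 lie above the DMSO libraries of the same line in all 10 panels, and Molm-14 lies lowest or among the lowest.

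Of the classical pairs, HLA-DR is usually the most abundant class II molecule. HLA-DRA (chr6:32439842-32445046, plus strand), the nearly invariant alpha chain, had 18.5, 18.1 and 24.5 CPM in MV4-11 with DMSO and 93.2, 74.5 and 78.8 CPM with RMC-4550. SKNO-1 gave 17.4, 18.1 and 19.8 CPM with DMSO and 120, 123 and 132 CPM with RMC-4550. In Molm-14 it had 0.444, 0.231 and 0.668 CPM with DMSO and 1.37, 0.961 and 1.64 CPM with RMC-4550, or 4 to 12 reads against 15 to 29. The treated libraries lay above the DMSO libraries in all 3 lines, yet the highest Molm-14 library stayed below the lowest DMSO library of the other lines. The log2 changes were 2.76 in SKNO-1, 2.02 in MV4-11 and 1.59 in Molm-14 (SE 0.27 each). As a ratio of mean CPM this is 6.78, 4.04 and 2.95 times.

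HLA-DRB1 (chr6:32578769-32589848, minus strand), the polymorphic beta chain, went the same way. It had 18.99, 15.7 and 18.9 CPM in MV4-11 with DMSO and 51.4, 49.0 and 47.3 CPM with RMC-4550. In SKNO-1 the values were 15.4, 15.2 and 18.2 CPM with DMSO and 65.2, 70.1 and 67.7 CPM with RMC-4550. Molm-14 gave 1 to 6 reads per library with DMSO and 11 to 14 reads with RMC-4550. The log2 change was 1.47 in MV4-11 and 2.06 in SKNO-1, and 2.23 in Molm-14 from these few reads (SE 0.33 each). HLA-DRB1 and HLA-DRB5 are near-identical copies, so how reads were split between them is uncertain. HLA-DRB5 was read at 1.53 and 4.15 CPM in MV4-11 and at 2.03 and 7.16 CPM in SKNO-1, with DMSO and RMC-4550.

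HLA-DP showed the largest changes. HLA-DPA1 (chr6:33064569-33080775, minus strand) had 4.14, 3.48 and 2.87 CPM in MV4-11 with DMSO and 18.3, 14.3 and 16.1 CPM with RMC-4550. The SKNO-1 values were 3.37, 3.95 and 3.25 CPM with DMSO and 27.4, 33.03 and 31.9 CPM with RMC-4550. The log2 changes were 2.21 and 3.12 (SE 0.40 each). HLA-DPB1 (chr6:33075926-33087201, plus strand) had 0.484, 0.767 and 0.419 CPM in MV4-11 with DMSO and 3.96, 4.25 and 3.60 CPM with RMC-4550. In SKNO-1 the level was 0.784, 0.688 and 0.706 CPM with DMSO and 7.22, 9.60 and 9.01 CPM with RMC-4550. Its log2 changes of 2.80 and 3.52 (SE 0.37 each) were the highest of the 10 genes in each of those lines, from 7 to 17 reads per DMSO library. In Molm-14 neither gene had more than 4 reads in any library, and no fold is given. Both chains share 96 exon bases on opposite strands.

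HLA-DQ was uneven between its chains. HLA-DQB1 (chr6:32659467-32668383, minus strand) had 10.01, 6.34 and 11.3 CPM in MV4-11 with DMSO and 22.7, 17.6 and 21.6 CPM with RMC-4550. In SKNO-1 it had 9.64, 10.5 and 10.1 CPM with DMSO and 31.0, 32.9 and 29.6 CPM with RMC-4550. In Molm-14 it had 1.61, 1.67 and 1.28 CPM with DMSO and 1.48, 1.54 and 1.07 CPM with RMC-4550. The Molm-14 groups overlapped, with a log2 change of -0.16, against 1.19 in MV4-11 and 1.63 in SKNO-1 (SE 0.20 each). HLA-DQA1 (chr6:32628179-32647062, plus strand) gave only 5 to 7 reads per DMSO library in MV4-11 and SKNO-1. With RMC-4550 it gave 15 to 16 reads in MV4-11 and 37 to 41 in SKNO-1, log2 changes of 1.38 and 2.61 (SE 0.60 each). Molm-14 gave 0 to 2 reads. HLA-DQB1 also shares 241 exon bases with an antisense gene, HLA-DQB1-AS1, that had at most 6 reads in any library.

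Among the loading genes, HLA-DMA (chr6:32948613-32969094, minus strand) had the most reads in Molm-14 of the 8 HLA-D genes among the 10. It had 7.56, 5.77 and 5.68 CPM there with DMSO and 11.5, 17.999 and 11.4 CPM with RMC-4550, a log2 change of 1.08 (SE 0.20). The highest of these, 17.999 CPM, came from the library with 15.0% mitochondrial reads. In MV4-11 it had 21.8, 15.5 and 23.8 CPM with DMSO and 51.3, 35.3 and 43.6 CPM with RMC-4550. In SKNO-1 it had 14.3, 18.1 and 17.2 CPM with DMSO and 55.7, 68.1 and 67.0 CPM with RMC-4550. The log2 changes were 1.10 and 1.94 in these lines. HLA-DMB (chr6:32934629-32941070, minus strand), its partner, had 0.323, 0.780 and 0.565 CPM in SKNO-1 with DMSO and 4.03, 3.76 and 4.05 CPM with RMC-4550, a log2 change of 2.86 (SE 0.35). In MV4-11 it had 1.13, 0.614 and 1.02 CPM with DMSO and 3.06, 2.48 and 2.28 CPM with RMC-4550, a log2 change of 1.51. The 2 Molm-14 groups overlapped, at 5 to 14 reads and 10 to 11 reads. HLA-DMA shares 55 exon bases with BRD2 on the opposite strand, which had 384 CPM in Molm-14 with DMSO, and 174 with a gene on its own strand, AL645941.2, which shares 438 with HLA-DMB. Their part in these levels was not tested.

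CD74 (chr5:150401637-150412929, minus strand) had by far the most reads of the 10 genes and the smallest change in MV4-11 and SKNO-1. In Molm-14 it had 153, 158 and 158 CPM with DMSO and 170, 224 and 180 CPM with RMC-4550. In MV4-11 it had 579, 441 and 650 CPM with DMSO and 1014, 736 and 875 CPM with RMC-4550. SKNO-1 had 474, 497 and 515 CPM with DMSO and 1069, 1162 and 1122 CPM with RMC-4550. The groups did not overlap in any line, and the log2 change was 0.28, 0.66 and 1.17 (SE 0.14 each). CD74 was read well in Molm-14 too, at 157 CPM with DMSO against 556 in MV4-11 and 495 in SKNO-1.

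In Molm-14, 4 of the 10 genes reached the level for testing (at least 1 CPM in 3 libraries of the line), and 2 of these, HLA-DMA and CIITA, were called higher with limma at a Benjamini-Hochberg adjusted p under 0.05. Among all genes tested in Molm-14, 21.5% were called higher. In MV4-11 9 of 9 were called higher, beside 5.85% of all genes, and in SKNO-1 10 of 10, beside 10.8%. HLA-DQA1 in MV4-11 was under the level for testing. In Molm-14 the treated libraries all lay above the DMSO libraries for 3 of the 4 genes tested, beside 26.9% of all genes tested, and for 5 of all 10. In MV4-11 they did for 9 of the 9 tested, beside 11.1%, and for all 10. In SKNO-1 they did for 10 of 10, beside 26.6%. These changes took part in choosing the genes, so nothing is read from the counts. The median log2 change was 1.49 over the 10 genes in MV4-11 and 2.44 in SKNO-1, with -0.01 and -0.05 over all genes tested. In Molm-14 it was 0.42 over the 4 genes tested, with -0.06 over all genes.

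**Figure D2:**
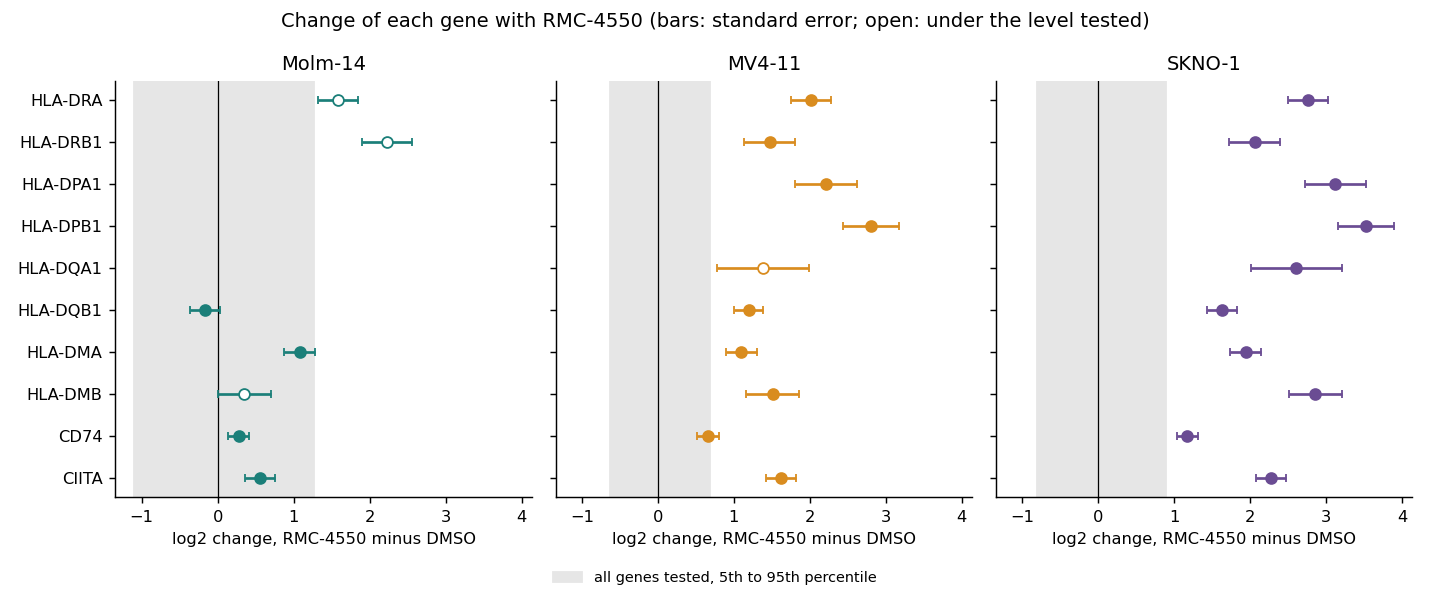
Log2 change with RMC-4550 against DMSO (x axis) of each gene in each line, with standard errors as bars; open points are under the level tested, Molm-14 genes with almost no reads are left out, and the grey band holds the 5th to 95th percentile of all genes tested. In SKNO-1 all 10 genes lie to the right of the band, from 1.17 for CD74 to 3.52 for HLA-DPB1, and in MV4-11 they run from 0.66 to 2.80.

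The change was larger in SKNO-1 than in MV4-11 for all 10 genes. Among the 580 genes called higher in both lines, 55.9% had the larger change in SKNO-1. The difference was widest for HLA-DMB (2.86 against 1.51) and HLA-DQA1 (2.61 against 1.38) and narrowest for HLA-DQB1 (1.63 against 1.19) and CD74 (1.17 against 0.66). The starting levels were alike: with DMSO, the ranges of SKNO-1 and MV4-11 overlapped for 9 of the 10 genes, and CIITA alone was higher in every SKNO-1 library, by 1.32 times in the means. Among all genes tested with DMSO, 53.1% did not overlap between these lines in either direction. Against Molm-14, all MV4-11 DMSO libraries were higher for 9 of the 10 genes and so were all SKNO-1 libraries, beside 27.8% and 40.5% of all genes tested, and HLA-DMB overlapped. The shares for DMSO cover genes with at least 1 CPM in 3 of the DMSO libraries compared. HLA-DPB1, HLA-DQA1 and HLA-DMB did not reach that level, so the counts of the 10 genes include genes outside those shares. The ratio to Molm-14 ran from 3.21 for HLA-DMA to 106 for HLA-DRB1 in MV4-11 among genes with more than 3 reads in a Molm-14 library, leaving HLA-DMB aside. HLA-DPA1, at 0 or 1 read in Molm-14, was at least 20.7-fold higher in MV4-11 and at least 20.8-fold higher in SKNO-1, counted from a floor of 3 reads per library.

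Within the 3 MV4-11 libraries under 10% mitochondrial reads (1 with DMSO, 2 with RMC-4550), the median log2 change over the 10 genes was 1.62, with all changes between 0.86 and 2.31. Within the 3 over 10% (2 with DMSO, 1 with RMC-4550) it was 1.41, with all between 0.73 and 3.06. Both lie close to the 1.49 across all 6 MV4-11 libraries. In Molm-14 the median over the 10 genes was 0.39 without the library over 10%, against 0.45 with it.

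Adjusting for transcript length, the chains of a pair were read unequally. In SKNO-1 with RMC-4550, HLA-DRA was read at 97.7 ± 4.75 CPM per kb of its principal GENCODE 29 transcript and HLA-DRB1 at 55.1 ± 1.98. HLA-DPA1 was at 18.1 ± 1.75 and HLA-DPB1 at 5.52 ± 0.80 CPM per kb. HLA-DQA1 was at 1.13 ± 0.05 and HLA-DQB1 at 17.97 ± 0.96, and HLA-DMA was at 56.6 ± 6.13 with HLA-DMB at 2.82 ± 0.11 CPM per kb (SD, n = 3 each). CD74 stood at 1139 ± 47.8 CPM per kb, above every HLA-D gene. DR thus had the most reads per length of the classical pairs by both chains in this group. The DQ alpha and DM beta transcripts were read far below their partners. The part of reads lost to alleles unlike the reference or to overlapping genes in these gaps was not tested. The lengths of CIITA transcripts differ too widely for this scale, and no value per length is given for it.

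Summed over the 8 HLA-D genes, class II reads came to 10.1, 8.42 and 8.80 CPM in Molm-14 with DMSO and 15.9, 22.03 and 15.7 CPM with RMC-4550. The sum was 75.4, 60.7 and 83.0 CPM in MV4-11 with DMSO and 245, 198 and 214 CPM with RMC-4550. In SKNO-1 it was 61.5, 67.6 and 70.2 CPM with DMSO and 313, 342 and 343 CPM with RMC-4550. Per CPM of CIITA this sum was 1.501, 1.61 and 1.92 in the SKNO-1 DMSO libraries and 1.75, 1.62 and 1.80 with RMC-4550. In SKNO-1 the class II sum and CIITA thus kept nearly the same ratio, 1.68 ± 0.21 against 1.72 ± 0.10 (SD, n = 3), while both were several times higher with the drug.

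In MV4-11 the ratio was 2.26, 1.72 and 3.70 with DMSO and 3.43, 1.97 and 2.02 with RMC-4550. The 3 higher values were those of the 3 libraries over 10% mitochondrial reads, and the other 3 lay between 1.72 and 2.02. In these libraries CIITA was lower and the HLA-D sum higher than in the other libraries of the group. In Molm-14 the ratio was 5.84 to 8.78 with DMSO and 7.69 to 10.1 with RMC-4550, where most of the sum was HLA-DMA. No correlation is given over the 18 libraries, which fall into clusters, with the DMSO libraries of MV4-11 and SKNO-1 lying together.

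**Figure D3:**
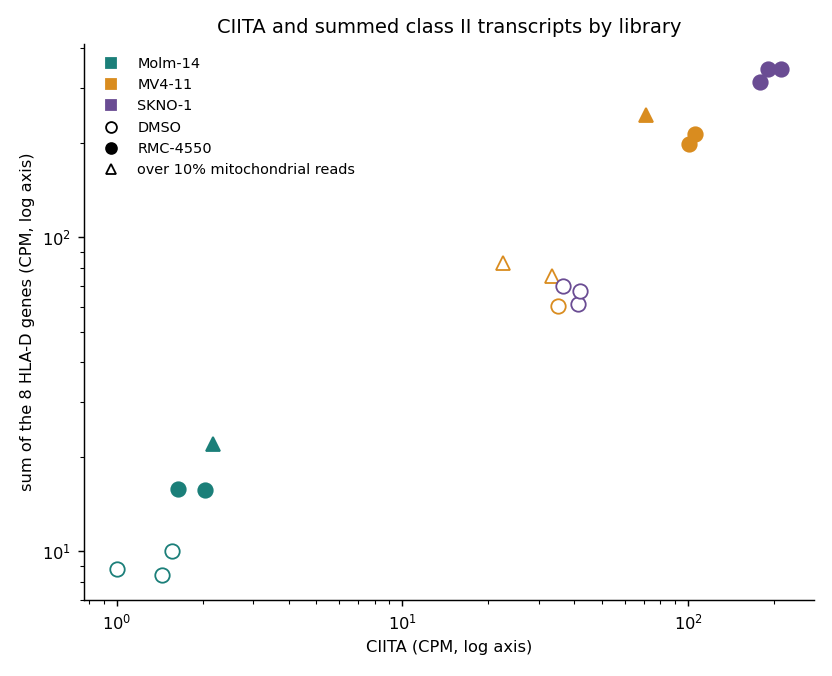
Summed CPM of the 8 HLA-D genes (y axis) against CIITA CPM (x axis), both log axes, 1 point per library, coloured by line, filled for RMC-4550, with triangles for libraries over 10% mitochondrial reads. Molm-14 lies near 1 to 2 CPM of CIITA, the DMSO libraries of MV4-11 and SKNO-1 lie together, and the RMC-4550 libraries of SKNO-1 lie highest on both axes.

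Set against CIITA gene by gene, the changes spread to both sides. In MV4-11, 3 of the 9 other genes changed more than CIITA on the log2 scale (HLA-DRA, HLA-DPA1 and HLA-DPB1) and 6 changed less. In SKNO-1, 5 changed more, with HLA-DQA1 and HLA-DMB added to those 3, and 4 changed less. HLA-DPB1 stood highest, at 1.19 above CIITA in MV4-11 and 1.24 in SKNO-1. CD74 stood lowest, at -0.96 and -1.10. HLA-DRB1, HLA-DQB1 and HLA-DMA were also below CIITA in both lines.

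**Figure D4:**
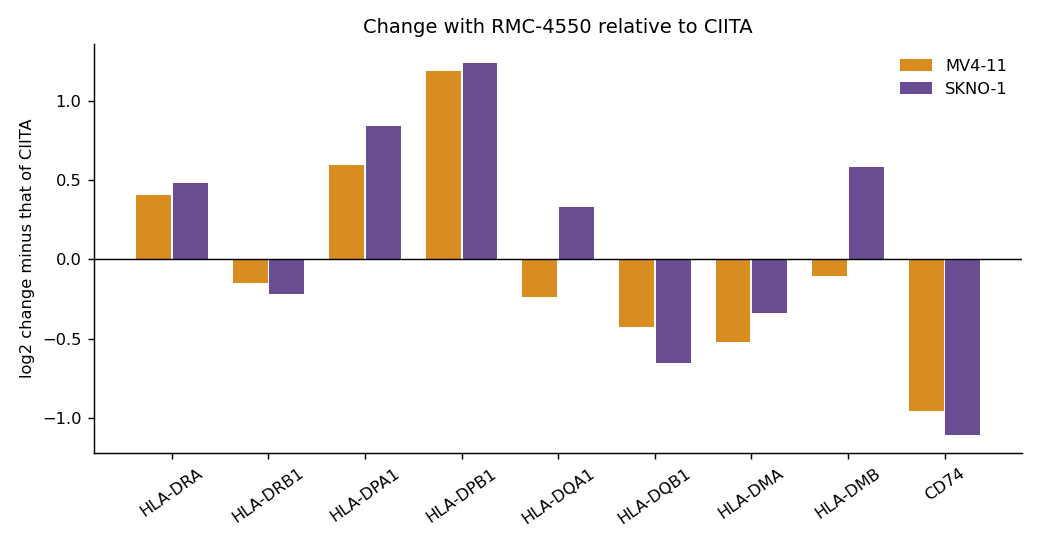
Log2 change of each gene minus that of CIITA (y axis) in MV4-11 and SKNO-1. HLA-DPB1 stands highest, at 1.19 and 1.24, and CD74 lowest, at -0.96 and -1.10.

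Over the 6 group means, the order of CIITA was Molm-14 with DMSO, Molm-14 with RMC-4550, MV4-11 with DMSO, SKNO-1 with DMSO, MV4-11 with RMC-4550 and SKNO-1 with RMC-4550. HLA-DPA1 had the same order. HLA-DRA, HLA-DRB1, HLA-DQA1, HLA-DMA and CD74 differed from it only in placing SKNO-1 with DMSO below MV4-11 with DMSO, groups whose ranges overlapped for each of these genes. HLA-DPB1 and HLA-DQB1 placed Molm-14 with RMC-4550 below Molm-14 with DMSO, and HLA-DMB placed SKNO-1 with DMSO between the Molm-14 groups. The genes most like CIITA over the 6 groups were found from log2 group means centred on each gene's own mean, among 16252 genes with the 10 left out. The smallest root mean square differences from CIITA were 0.28 for IGSF22, 0.31 for SLC24A4, 0.33 for CLIC3, 0.33 for LILRB3, an inhibitory leukocyte receptor, and 0.34 for ENSG00000237513. IGSF22, SLC24A4 and ENSG00000237513 had at most 1 read in any Molm-14 library and LILRB3 at most 5, so that part of their pattern rests on the 0.5 added to the reads. Of the 10 genes, HLA-DRA was nearest to CIITA at 0.46, which would rank 17th among the other genes. HLA-DPB1 would rank 45th, HLA-DPA1 107th, HLA-DRB1 141st, HLA-DQB1 387th, HLA-DQA1 521st, CD74 1140th, HLA-DMA 1283rd and HLA-DMB 1572nd, at 1.90. HLA-DPB1 had at most 1 read in any Molm-14 library, HLA-DQA1 at most 2 and HLA-DPA1 at most 4. The Molm-14 part of their patterns thus also rests on the 0.5 added to the reads. Nearest to HLA-DRA were HLA-DRB5 at 0.36, TMEM176B at 0.53, SLC24A4 at 0.53, ST8SIA6 at 0.55 and RPH3AL-AS1 at 0.57, of which HLA-DRB5 and TMEM176B had at most 3 reads in a Molm-14 library and SLC24A4 at most 1.

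Other genes of the class II region were mixed. Of 9 listed, the 1 tested in Molm-14 (HLA-DOB) was called by neither limma nor voom weights and missed an unadjusted p of 0.05, 1 of the 3 tested in MV4-11 rose (HLA-DPB2, a pseudogene, log2 change 1.76, limma adjusted p 0.011) and 2 of the 2 tested in SKNO-1 rose, HLA-DPB2 by 1.89 (adjusted p 0.0037) and HLA-DRB5 by 1.81 (adjusted p 0.014). HLA-DPB2 and HLA-DRB5 resemble HLA-DPB1 and HLA-DRB1, and reads shared between copies were not tested. HLA-DOB, part of the modulator that restrains HLA-DM, behaved otherwise. It had 10.6, 10.5 and 12.3 CPM in Molm-14 with DMSO, 9.47, 6.29 and 10.5 in MV4-11, and 1.06, 0.413 and 0.612 in SKNO-1. Unlike the classical genes, its DMSO level was higher in Molm-14 than in SKNO-1. Neither its change in Molm-14 (-0.14, adjusted p 0.74) nor that in MV4-11 (-0.31, adjusted p 0.60) passed. Its partner HLA-DOA had a mean of at most 0.108 CPM in any group.

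Of the 10 genes of the promoter complex and its coactivators, 2 rose and 5 fell in Molm-14, 0 changed in MV4-11 with limma, and 2 rose and 2 fell in SKNO-1. In MV4-11, 1 gene was higher and 1 lower at an unadjusted p under 0.05, and voom weights called 0 as well. Over all genes tested, the share that fell was 16.2% for SKNO-1, 8.03% for MV4-11 and 25.2% for Molm-14. The share that rose was 10.8%, 5.85% and 21.5% in the same order, and these shares also stand beside the lists below. RFX5 had 51.7, 51.2 and 48.6 CPM in Molm-14 with DMSO and 42.1, 27.7 and 38.6 with RMC-4550, a fall of -0.51 on the log2 scale (limma adjusted p 0.012). In SKNO-1 it had 31.1, 29.5 and 30.6 CPM with DMSO and 39.7, 42.2 and 41.1 with RMC-4550, a rise of 0.43 (adjusted p 0.043). RFXAP, another subunit of the same complex, fell in Molm-14 (-0.47, adjusted p 0.0044) and rose in SKNO-1 (0.59, adjusted p 0.0016). RFXANK rose in Molm-14 (0.46, adjusted p 0.0012), with a change of 0.24 in SKNO-1 (adjusted p 0.083). With DMSO, RFX5 was at 50.5 CPM in Molm-14 against 34.1 in MV4-11 and 30.4 in SKNO-1, RFXAP at 8.82 against 7.04 and 7.26, and RFXANK at 62.2 against 80.2 and 69.5. The RFX5 call in Molm-14 was lost without RMC-4550 replicate 2 (-0.32), and that in SKNO-1 was lost without any single library of that line (0.41 to 0.45).

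Of the NF-Y subunits, NFYA fell in Molm-14 (-0.68, adjusted p 0.00070) and SKNO-1 (-0.42, adjusted p 0.030), and NFYB fell in SKNO-1 (-0.55, adjusted p 0.0012) and Molm-14 (-0.29, adjusted p 0.038). NFYC rose in Molm-14 (0.63, adjusted p 0.00084). The NFYA call in SKNO-1 did not hold without any single library of that line (-0.45 to -0.37), and the NFYB call in Molm-14 did not hold without DMSO replicate 1 (-0.25), 2 (-0.29) or 3 (-0.32) or without RMC-4550 replicate 2 (-0.19). These subunits serve many promoters besides those of class II.

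On the interferon-gamma route to CIITA, 3 of 9 tested genes rose and 2 fell in Molm-14, and 2 rose and 3 fell in SKNO-1. In MV4-11, 1 rose and 0 fell. There 1 was lower at an unadjusted p under 0.05, and voom weights called 2 higher and 0 lower. SOCS1, which restrains JAK signalling, rose in all 3 lines, by 1.66, 1.26 and 1.08 (limma adjusted p 1.4e-06, 1.0e-04 and 1.8e-04). SOCS3, a related inhibitor, rose by 0.85 in Molm-14 and 0.96 in SKNO-1 (adjusted p 7.1e-05 and 4.0e-05). IFNGR2, a chain of the interferon-gamma receptor, rose in Molm-14 (0.28, adjusted p 0.0038) and fell in SKNO-1 (-0.22, adjusted p 0.031), with a change of -0.03 in MV4-11 (adjusted p 0.81). Its SKNO-1 call was lost with no filter on low values (-0.22), with median-ratio scaling (-0.15) and without DMSO replicate 2 (-0.23) or 3 (-0.18) or any one RMC-4550 replicate (-0.24 to -0.19). IRF1, which acts on CIITA, did not pass in any line (0.17, 0.16 and 0.30; adjusted p 0.48, 0.65 and 0.28). IRF2 fell in Molm-14 (-0.57, adjusted p 3.7e-05) and SKNO-1 (-0.30, adjusted p 0.012).

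Among 8 lineage regulators of CIITA, 4 rose of the 7 tested in Molm-14, 1 of 8 in MV4-11, 2 of 8 in SKNO-1. EZH2 was the 1 that fell in each line. PRDM1, a repressor of CIITA in plasma cells, rose in Molm-14 from 18.3 to 57.5 CPM (1.64, limma adjusted p 4.4e-07), in MV4-11 by 0.56 (adjusted p 0.019) and in SKNO-1 by 0.79 (adjusted p 9.4e-04). CIITA was also higher with RMC-4550 in every line, least in Molm-14 (0.55). The MV4-11 call of PRDM1 was lost without DMSO replicate 1 (0.43) or 3 (0.53) or RMC-4550 replicate 2 (0.45) or 3 (0.54). EZH2, which places a repressive histone mark, fell by 0.77, 0.44 and 0.40 (adjusted p 2.3e-07, 2.7e-04 and 2.7e-04). SPI1, which encodes PU.1, was at 381 CPM in MV4-11 with DMSO, 328 in SKNO-1 and 214 in Molm-14. IRF8 was at 321, 317 and 362 CPM in the same order, and its changes did not pass in any line (0.24, 0.00059 and -0.77; adjusted p 0.74, 0.9996 and 0.10). Both factors were well read in all 3 lines. The SPI1 call in Molm-14 (0.48, adjusted p 0.045) was lost without any of the 3 DMSO libraries (0.47 to 0.50) or without RMC-4550 replicate 2 (0.26). IRF4, picked out after its values had been seen, had 0.722, 1.10 and 0.613 CPM in Molm-14 with DMSO, 53.2, 75.5 and 48.8 in MV4-11, and 101, 101 and 99.9 in SKNO-1. This is the same order of lines as CIITA. Its changes with RMC-4550 in MV4-11 and SKNO-1, 0.46 and 0.39, missed the threshold (adjusted p 0.27 each). The part of any of these regulators in the levels or changes of CIITA was not tested.

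**Figure D5:**
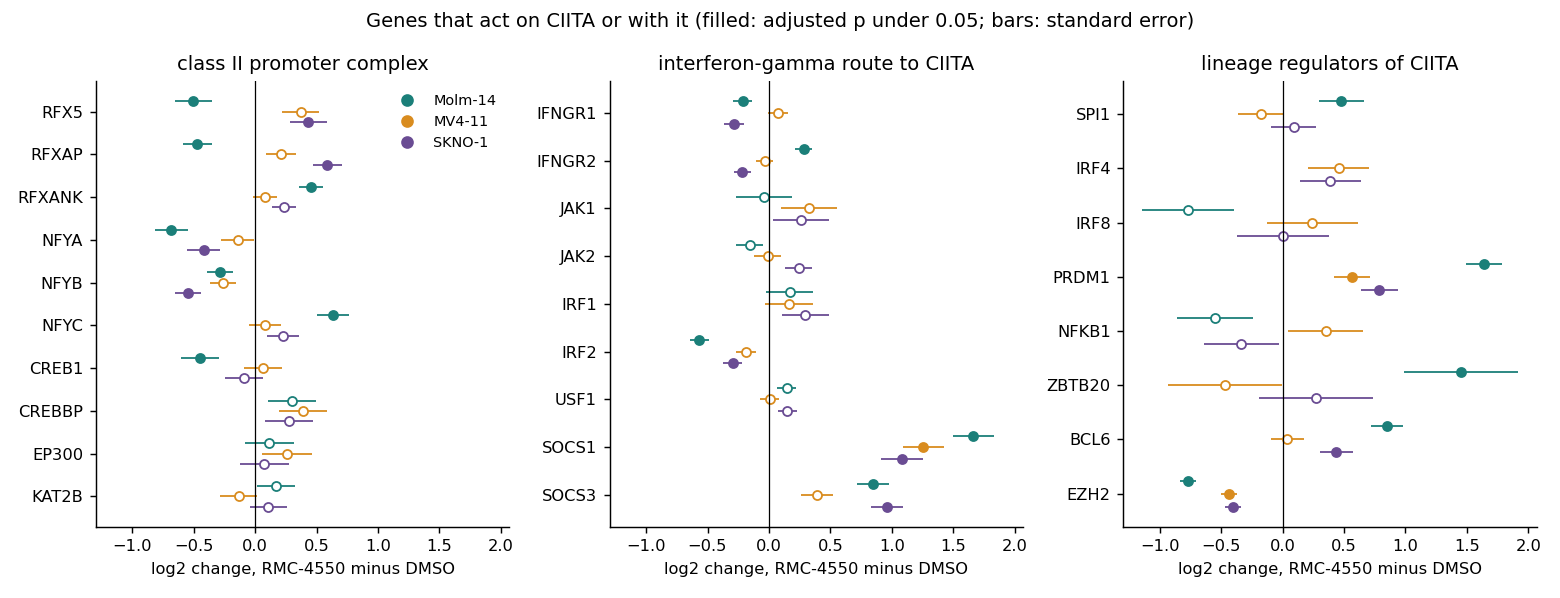
Log2 change with RMC-4550 (x axis) of tested genes of the promoter complex, the interferon-gamma route and the lineage regulators in each line, with standard errors; filled points passed an adjusted p of 0.05. RFX5 and RFXAP lie left of 0 in Molm-14 and right of it in SKNO-1, and SOCS1 and PRDM1 lie to the right in all 3 lines.

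Of the genes that process antigen for class II, 6 could be tested. In Molm-14 5 rose, beside 21.5% of all genes tested, in MV4-11 4, beside 5.85%, and in SKNO-1 2, beside 10.8%. None of the 6 fell in any line with limma, at an unadjusted p under 0.05 or with voom weights. CTSZ rose in all 3 lines (0.63, 0.67 and 0.65; limma adjusted p 1.9e-06, 5.4e-06 and 2.4e-06). CTSS, the protease that trims the invariant chain, rose in MV4-11 and SKNO-1 (0.45 and 0.50; adjusted p 0.0026 and 4.6e-04), with a change of 0.20 in Molm-14 (adjusted p 0.072). CTSB rose in Molm-14 and MV4-11 (0.86 and 0.52; adjusted p 3.4e-07 and 2.3e-04), with a change of -0.01 in SKNO-1 (adjusted p 0.92). Unlike the 8 HLA-D genes among the 10, CTSS was highest in Molm-14, at 181 CPM with DMSO against 97.1 and 57.5. Of the 9 genes for class II turnover and costimulation, 3 of 8 tested rose and 1 fell in Molm-14 (CD86, CD9 and CD63 against CD83), and CD86 was the 1 of 7 that rose in each other line. CD86, a costimulatory ligand shown to T cells beside class II, rose in all 3 lines, by 1.70, 1.32 and 1.30 (adjusted p 5.6e-08, 3.6e-06 and 1.4e-06). It went from 7.16 to 23.2 CPM in Molm-14, from 6.92 to 17.4 in MV4-11 and from 8.07 to 19.9 in SKNO-1.

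Class I genes are controlled by NLRC5, a relative of CIITA. Of 9 genes from NLRC5 to the TAP transporter, 2 rose and 1 fell in Molm-14. In MV4-11, 0 rose and 1 fell. There 2 were higher at an unadjusted p under 0.05, and voom weights called 0 higher and 1 lower. In SKNO-1, 2 rose, and 1 was lower at an unadjusted p under 0.05. The median log2 change of the 9 genes was 0.13, 0.13 and 0.09, where that of the class II genes was 0.42 (4 tested), 1.49 and 2.44. The class II genes were chosen by these changes, so nothing is read from this difference. NLRC5 itself fell in MV4-11 (-0.58, limma adjusted p 0.0030), where CIITA was higher with RMC-4550. It changed by -0.19 in Molm-14 and -0.26 in SKNO-1 (adjusted p 0.18 and 0.10). B2M, the light chain of class I, rose in Molm-14 by 0.36 (adjusted p 0.0013), while TAP2 fell there (-1.41, adjusted p 7.1e-08). HLA-E rose in Molm-14 (0.32, adjusted p 0.035) and SKNO-1 (0.36, adjusted p 0.033). Both HLA-E calls were lost with no filter on low values, the SKNO-1 call also without any single library of that line (0.34 to 0.38), and the Molm-14 call with separate fits and without any single library of that line but RMC-4550 replicate 2 (0.23 to 0.33).

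Markers of other cells that make class II were counted. Of 7 B cell markers, 3 were at 3 reads or fewer in each DMSO library of Molm-14, as were 2 for MV4-11 and 3 for SKNO-1. MS4A1 had at most 2 reads in any library and CR2 at most 1. Their summed level was 39.3 to 42.2 CPM with DMSO and 37.8 to 40.8 with RMC-4550 in Molm-14, 29.1 to 36.2 and 42.0 to 45.4 in MV4-11, and 3.67 to 4.68 and 7.87 to 8.91 in SKNO-1. The groups did not overlap in MV4-11 or SKNO-1, where the RMC-4550 libraries were higher, and overlapped in Molm-14. PAX5 rose in SKNO-1 (1.88, limma adjusted p 1.2e-04) from 0.525 to 1.96 CPM, and fell in Molm-14 (-1.25, adjusted p 0.0018). Of the B cell markers tested, 2 of 4 rose in SKNO-1 (PAX5 and FCRLA) and 1 of 3 fell in Molm-14 (PAX5). In MV4-11 limma called 0 of 3, with 1 higher at an unadjusted p under 0.05 and 1 with voom weights. The shares of all genes given above stand beside these counts too. Of 8 dendritic cell markers, CLEC4C, CLEC9A, XCR1 and CD1C had at most 5 reads in any library. Their sum was 617 to 637 and 488 to 603 CPM in Molm-14, 364 to 517 and 516 to 637 in MV4-11, and 356 to 374 and 496 to 527 in SKNO-1, with DMSO and RMC-4550, and most of it was FLT3, which rose in MV4-11 (0.48, adjusted p 0.014) and SKNO-1 (0.51, adjusted p 0.0052). For FLT3 in MV4-11 the threshold was missed when each line was fitted separately (0.48) and when DMSO replicate 1 (0.38) or 3 (0.43) or RMC-4550 replicate 2 (0.41) or 3 (0.47) was left out, and the change was 0.25 among libraries under 10% mitochondrial reads. T cell markers CD3D and CD3E had at most 1 read in any library. The T and NK cell list, 7 genes in the table, summed to 32.7 to 36.7 and 49.4 to 55.9 CPM in Molm-14, 32.6 to 42.4 and 36.6 to 45.7 in MV4-11, and 25.8 to 29.5 and 33.1 to 44.1 in SKNO-1, mostly NKG7. NKG7, the 1 gene of that list tested, was called higher in Molm-14 (0.60) and SKNO-1 (0.43) and not in MV4-11 (0.10). Of the dendritic cell markers, ZBTB46 was called higher in Molm-14, 1 of the 2 tested there. The myeloid markers summed to between 1379 and 2725 CPM in all libraries, with AZU1 and CD33 high and CD14 at 9 reads or fewer. CSF1R, the receptor of mature monocytes, rose in all 3 lines (2.47, 1.20 and 1.06, with limma adjusted p 3.3e-08, 1.9e-04 and 2.5e-04). Of the 7 myeloid markers tested in each line, ELANE also rose and MPO fell in Molm-14, and ITGAM also rose in MV4-11 and SKNO-1. The part of B cell, dendritic or myeloid programmes in the class II changes was not tested.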

How the data were processed

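Polyadenylated RNA of 18 cultures was sequenced on DNA nanoballs, per the labels' protocols. The submitters' processing notes name FastQC, STAR, limma and GRCh38. The counter, annotation and strand setting are not given in the sources used here. The authors deposited 1 table of log2 values for 40184 gene IDs, of which 40069 matched a symbol. From the values, each is log2 CPM with 0.5 added to the reads, over an effective library (total reads times a scaling factor of 0.890 to 1.11). Undoing this gave whole reads, within 0.02, for 100% of values under 200 reads in every library. CPM were computed from these reads. A group with at most 3 reads in each library is treated as at the floor. Floors cover counting error only.

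Changes were fitted with limma 3.58.1 (R 4.3.3; lmFit, eBayes with trend) on the deposited log2 values of all 18 samples, with 1 coefficient per group. A gene was tested with at least 1 CPM in 3 samples overall and in 3 samples of the line, and p-values (two-sided) were Benjamini-Hochberg adjusted over all genes tested, with a threshold of 0.05. In simulated data for SKNO-1 (14598 genes), 77 of 93 genes changed by 1 on the log2 scale and 105 of 107 changed by 2 were recovered, and 2.67% of the 187 calls were unchanged genes. The simulation gave every gene and line the same spread beyond counting error and no difference in mitochondrial share. Its rates therefore need not hold for the real libraries. The numbers of the replicates come from the labels. The 10 genes and all lists were chosen with earlier results of these data known. Most genes outside the 10 were named by rule: up to 4 called genes per list by lowest adjusted p, a set of regulators whatever their call, and the 5 genes nearest to CIITA and to HLA-DRA. IRF4, cell type markers without a call and genes whose exons overlap those of the 10 were named outside this rule. Some listed genes are not reported here, and they are in no count, median or sum of a list. Alternatives tried were log2(CPM + 1), 2 other filters, median-ratio scaling, separate fits, a replicate block, voom weights, the mitochondrial share as covariate, leaving out each library and, chosen after seeing the data, only libraries under 10% mitochondrial reads. Gene positions and transcript lengths are from GENCODE 29, and promoters from RefSeq. Plots used matplotlib 3.10.9 (Python 3.11.15).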

Additional observations from a re-analysis of the deposited data

Results flagged for a closer look

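Responses of several pathway genes differed between lines by limma's test of the difference itself (Benjamini-Hochberg adjusted p under 0.05), where 3.8% of all genes tested differed for SKNO-1 against the mean of the FLT3-ITD lines and 19.5% for Molm-14 against MV4-11. Values are differences between log2 changes. Each Molm-14 and MV4-11 value rests on groups that hold the libraries over 10% mitochondrial reads. Among libraries under 10%, 14 of the 18 differences between Molm-14 and MV4-11 given here passed, as did 6 of the 7 for SKNO-1. PAX5 (-0.84, adjusted p 0.18), CD83 (-0.53, adjusted p 0.14) and RFXAP (-0.58, adjusted p 0.062) did not pass between Molm-14 and MV4-11, and CD9 was under the level for testing. RFX5 (-0.47), FLT3 (-0.33) and NFYC (0.31) passed there with differences smaller by over 1.5 times.

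The log2 change in SKNO-1 lay above the mean of the FLT3-ITD lines for RFXAP (0.72), FCRLA (1.29), PAX5 (2.37) and ITGAM (0.58), and below it for CTSB (-0.71), IFNGR2 (-0.34) and CD9 (-1.62). Molm-14 lay below MV4-11 for TAP2 (-1.54), PAX5 (-1.52), RFX5 (-0.88), CD83 (-0.85), RFXAP (-0.68), FLT3 (-0.65), ITGAM (-0.52), IRF2 (-0.38) and EZH2 (-0.33). Molm-14 lay above MV4-11 for CD9 (1.95), CSF1R (1.28), PRDM1 (1.08), BCL6 (0.81), CD63 (0.63), NFYC (0.55), SPPL2A (0.41), CTSB (0.34) and IFNGR2 (0.32). Of the RFX subunits, RFX5 and RFXAP lay lower in Molm-14, and RFXANK had a difference of 0.38 that missed the threshold (adjusted p 0.062).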

How the results depend on the processing

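The 10 genes kept the direction and call of their changes in all but 9 of 326 comparisons with an alternative. CIITA in Molm-14 lost its call with log2(CPM + 1) (0.34), separate fits (0.55), voom weights (0.55) and 3 left-out libraries, CD74 in MV4-11 lost it with separate fits, and CD74 in Molm-14 passed with a replicate block (0.28) and among libraries under 10% mitochondrial reads (0.16). The median change in SKNO-1 was 1.94 with log2(CPM + 1). IRF8 in MV4-11 turned from 0.24 to -0.29 with the mitochondrial share as covariate and -0.40 among libraries under 10%.

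Counts of genes higher and lower over the whole table moved more. Separate fits gave 326 and 345 in MV4-11 (862 and 1183 in the shared fit) and 3453 and 4756 in SKNO-1 (1588 and 2381). The mitochondrial covariate gave 1788 and 3266 in MV4-11, 2937 and 4333 in SKNO-1 and 2496 genes with a different response in SKNO-1 (486). Libraries under 10% gave 2684 lower in MV4-11, 3111 and 4707 in SKNO-1 and 2356. Leaving out single libraries gave 452 to 1415 higher and 725 to 1590 lower in MV4-11, 1003 to 1994 higher in SKNO-1, 268 to 704 for the SKNO-1 difference and 1395 to 5873 for Molm-14 against MV4-11 (2620). Median-ratio scaling gave 1963 higher and 1933 lower in SKNO-1 and 1018 and 944 in MV4-11, and moved the median of all genes by under 0.1. The cause was not tested. The replicate block gave 3125 higher and 3820 lower in Molm-14, 807 and 1161 in MV4-11, 1674 and 2587 in SKNO-1. Same-numbered cultures did not all deviate together (r from -0.40 to 0.59 in MV4-11). The MV4-11 groups mix libraries under and over 10% mitochondrial reads, so these values cannot decide whether the numbers pair cultures. Depth limits Molm-14, where 7 of the 8 HLA-D genes had at most 29 reads in a library.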
